A study of Mus musculus with 18 samples.

Results

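The genes described here are 10 NF-kB subunits and feedback inhibitors: Nfkb1, Nfkb2, Nfkbia, Nfkbie, Nfkbiz, Bcl3, Tnfaip3, Tnip1, Zc3h12a and Zfp36. They were found by gene symbol in the annotation of the mouse 430 2.0 array, and 19 of the 45101 probe sets belonged to 9 of them; Nfkb1 was not analysed here. Each gene was read from its probe set with the highest mean intensity over the 18 arrays, and its other probe sets served as a check. All 9 passed the filter on low values and were among the 12257 genes tested.

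The arrays measured RNA of RAW cells, a mouse macrophage-like line, grown in DMEM. R848+apilimod cells received R848, a synthetic ligand of Toll-like receptor 7, at a labelled 0.1 mM together with 1 uM apilimod, an inhibitor of the lipid kinase PIKfyve. R848+API09 cells received R848 with 1 uM API09, which the series design calls an inactive analog of apilimod, R848 cells received R848 without a compound, and medium cells received none of the 3 agents. Each of these 4 arms had 1 array at 1, 3, 7 and 22 h, and medium also had 2 arrays at 0 h. There was no arm with apilimod and no R848, and the cells came from 1 transformed line. Separate cultures are not stated for the arrays, so the p-values rest on array-to-array spread alone, and that spread may be technical.

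NF-kB dimers are held in the cytoplasm by IkB proteins until a Toll-like receptor signal leads to IkB phosphorylation and breakdown, after which the dimers enter the nucleus and switch on inflammatory genes. Several of those genes encode brakes on the same signal: new IkB proteins that capture the dimers, enzymes and adaptors that remove or mask ubiquitin chains on signalling proteins, and RNA-binding proteins that destroy cytokine mRNA. In macrophages these brakes set how long cytokine production lasts.

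At each hour the pair of arrays without apilimod but with R848 was combined as R848 controls, and every difference below is on the log2(intensity + 16) scale, written with its standard error, from limma with Benjamini-Hochberg adjustment over 12257 genes. A gene passed where the adjusted p was under 0.05, and rose, fell, higher and lower are used for such genes only; folds quoted beside them are plain ratios of intensities. Median intensity lay between 17.5 and 19.2 on the 18 arrays. The R848+API09 array at 22 h stood apart: its upper quartile of intensity was 87.0, against 100.9 to 118.6 on the other 17, and its 18S ribosomal RNA probe sets were the highest, at a mean log2 level of 10.5 against 7.94 to 10.1. Their part in the results was not tested, and the 22 h differences of single genes between R848 controls and the other arms are also given without it in the text. The 8 macrophage markers tested had median intensities between 134 (the dimmest) and 17028 (Lyz2). Median intensities of T cell, B cell, fibroblast and epithelial markers did not exceed 48.2, and their highest single array read 61.0 (Epcam).

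Promoter sequences were searched for letters that match an NF-kB site close to the start of these genes. RefSeq promoters of build GRCm38.p6, 250 bases before to 50 bases after each annotated start, were matched by symbol for 8 of the 9 genes tested. Nfkbia, Tnfaip3, Nfkbie and Bcl3 are shown as examples of a plateau, an early peak, a peak at 3 h and a late peak in the controls; capitals mark matches to the kappaB consensus, the letters that NF-kB dimers bind, on either strand.
Nfkbia, chr12:55492598-55492897, minus strand: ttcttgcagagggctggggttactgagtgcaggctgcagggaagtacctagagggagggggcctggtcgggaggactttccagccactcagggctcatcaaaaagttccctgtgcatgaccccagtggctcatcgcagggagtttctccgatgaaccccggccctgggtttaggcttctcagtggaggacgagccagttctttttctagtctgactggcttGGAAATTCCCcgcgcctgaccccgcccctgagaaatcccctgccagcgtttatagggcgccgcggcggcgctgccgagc
Nfkbie, chr17:45555450-45555749, plus strand: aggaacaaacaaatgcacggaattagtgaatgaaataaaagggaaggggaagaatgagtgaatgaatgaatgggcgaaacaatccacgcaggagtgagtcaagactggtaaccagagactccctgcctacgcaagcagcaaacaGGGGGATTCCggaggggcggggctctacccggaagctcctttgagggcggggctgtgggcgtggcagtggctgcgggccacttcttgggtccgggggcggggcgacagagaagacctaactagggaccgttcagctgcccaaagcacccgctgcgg
Tnfaip3, chr10:19015361-19015660, minus strand: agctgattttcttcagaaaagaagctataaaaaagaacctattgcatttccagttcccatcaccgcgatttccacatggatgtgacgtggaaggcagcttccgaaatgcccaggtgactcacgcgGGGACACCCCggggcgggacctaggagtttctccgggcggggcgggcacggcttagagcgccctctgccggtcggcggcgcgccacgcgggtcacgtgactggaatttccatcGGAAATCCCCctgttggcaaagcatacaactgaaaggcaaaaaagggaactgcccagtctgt
Bcl3, chr7:19822706-19823005, minus strand: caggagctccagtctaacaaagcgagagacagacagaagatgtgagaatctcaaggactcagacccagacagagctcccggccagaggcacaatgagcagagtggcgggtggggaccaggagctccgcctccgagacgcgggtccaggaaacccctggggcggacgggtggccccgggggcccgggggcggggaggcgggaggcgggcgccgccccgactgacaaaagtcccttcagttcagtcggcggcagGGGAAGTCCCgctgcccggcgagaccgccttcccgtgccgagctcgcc
Zfp36, chr7:28379179-28379478, minus strand, is shown because the second peak of its controls had no counterpart with apilimod, with the letters TTCNNNGAA in capitals: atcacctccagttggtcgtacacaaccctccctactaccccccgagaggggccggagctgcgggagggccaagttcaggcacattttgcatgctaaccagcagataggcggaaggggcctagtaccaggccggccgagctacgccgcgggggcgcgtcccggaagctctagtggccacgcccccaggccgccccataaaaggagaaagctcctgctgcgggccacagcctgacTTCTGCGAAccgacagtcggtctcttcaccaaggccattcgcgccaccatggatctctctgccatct

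These 8 genes have 11 listed promoters. The kappaB consensus was found in 8 of the 11 (72.7%), which belong to 6 genes, and in 8.46% of all 32851 promoters of this length. At least 2 matches were found in 4 of the 11 (36.4%), against 1.22% of all promoters. The match of Nfkbia, GGAAATTCCC, began 29 bases before the start, and that of Nfkbie, GGGGGATTCC, began 106 bases before it. The upstream promoter of Tnfaip3 held GGGACACCCC and GGAAATCCCC, 125 and 12 bases before the start; its other promoter held none. The single match of Bcl3, GGGAAGTCCC, lay at position 3 of the transcribed side. In Tnip1 the 3 matches, 58, 57 and 56 bases before the start, overlap and cover the run GGGGAATTCC and the bases that follow it. Nfkb2 has 3 listed promoters, and the one farthest upstream held 3 matches, of which those at 39 and 38 bases before the start overlap; the other 2 promoters overlap each other and share GGGACTTTCC. Zfp36 and Zc3h12a had no match in these windows. TTCNNNGAA, a palindrome of the kind that STAT dimers bind, was found in 1 promoter each of Zfp36, Tnip1 and Nfkb2 (3 of 11, 27.3%) and in 8.3% of all promoters. Of the genes with it, Zfp36 and Tnip1 were lower with apilimod at 7 h and Nfkb2 did not pass. Bcl3 and Nfkbia, with no TTCNNNGAA in their windows, were also lower at that hour. Any link between these letters and the apilimod differences was not tested. Letters in a window are a description and do not show that a factor binds there.

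All 9 genes responded to R848, on different clocks. Within 1 h 5 of the 9 rose in R848 controls against medium, where 0.636% of all genes rose: Nfkbiz, Tnfaip3, Zfp36, Zc3h12a and Nfkbia. At 3 h all 9 were higher (6.23% of all genes), at 7 h 8 were (11.3%), and at 22 h 8 were higher and Nfkbie was lower (16.5% and 29.1% of all genes). The median difference of the 9 genes was 0.90 at 1 h, 1.99 at 3 h, 2.17 at 7 h and 1.26 at 22 h, while that of all genes lay between -0.04 and -0.01. At 22 h the split of all genes depended on scaling, with 2027 higher and 3570 lower as deposited and 4505 higher and 2319 lower after median centring, which shifted the median of all genes by 0.22; the 9 differences kept their sign under both, and leaving out the R848+API09 array gave the same 8 and 1. Between neighbouring hours the control level of 6 genes rose and that of 2 fell from 1 to 3 h (9.92% and 15.1% of all genes), 2 rose and 5 fell from 3 to 7 h (12.5% and 11.9%), and 8 fell from 7 to 22 h (29.2%).

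The apilimod differences of the same genes ran in both directions. At 1 h none of the 9 passed between R848+apilimod and R848 controls, and no other gene did in limma (0.0%; 165 genes and none of the 9 had an unadjusted p under 0.05, and limma with trend and robust called 1 gene). From 3 h on Tnfaip3 was higher with apilimod at each hour, while Zfp36, Bcl3, Nfkbiz and Tnip1 were lower at 3, 7 and 22 h, and Nfkbia was lower at 7 and 22 h. Nfkbie was higher at 22 h, Nfkb2 was lower at 3 h, and Zc3h12a passed at no hour. At 3 h 1 of the 9 had risen and 5 had fallen (5.07% and 4.12% of all genes). The counts were again 1 up and 5 down at 7 h (9.81% and 9.81%) and became 2 up and 5 down at 22 h (20.2% and 14.3%), the last unaltered without the R848+API09 array. Over the 9 genes the median apilimod difference was -0.12, -0.46, -0.47 and -0.55 at the 4 hours in order, and that of all genes lay between -0.03 and 0.03.

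**Figure D1:**
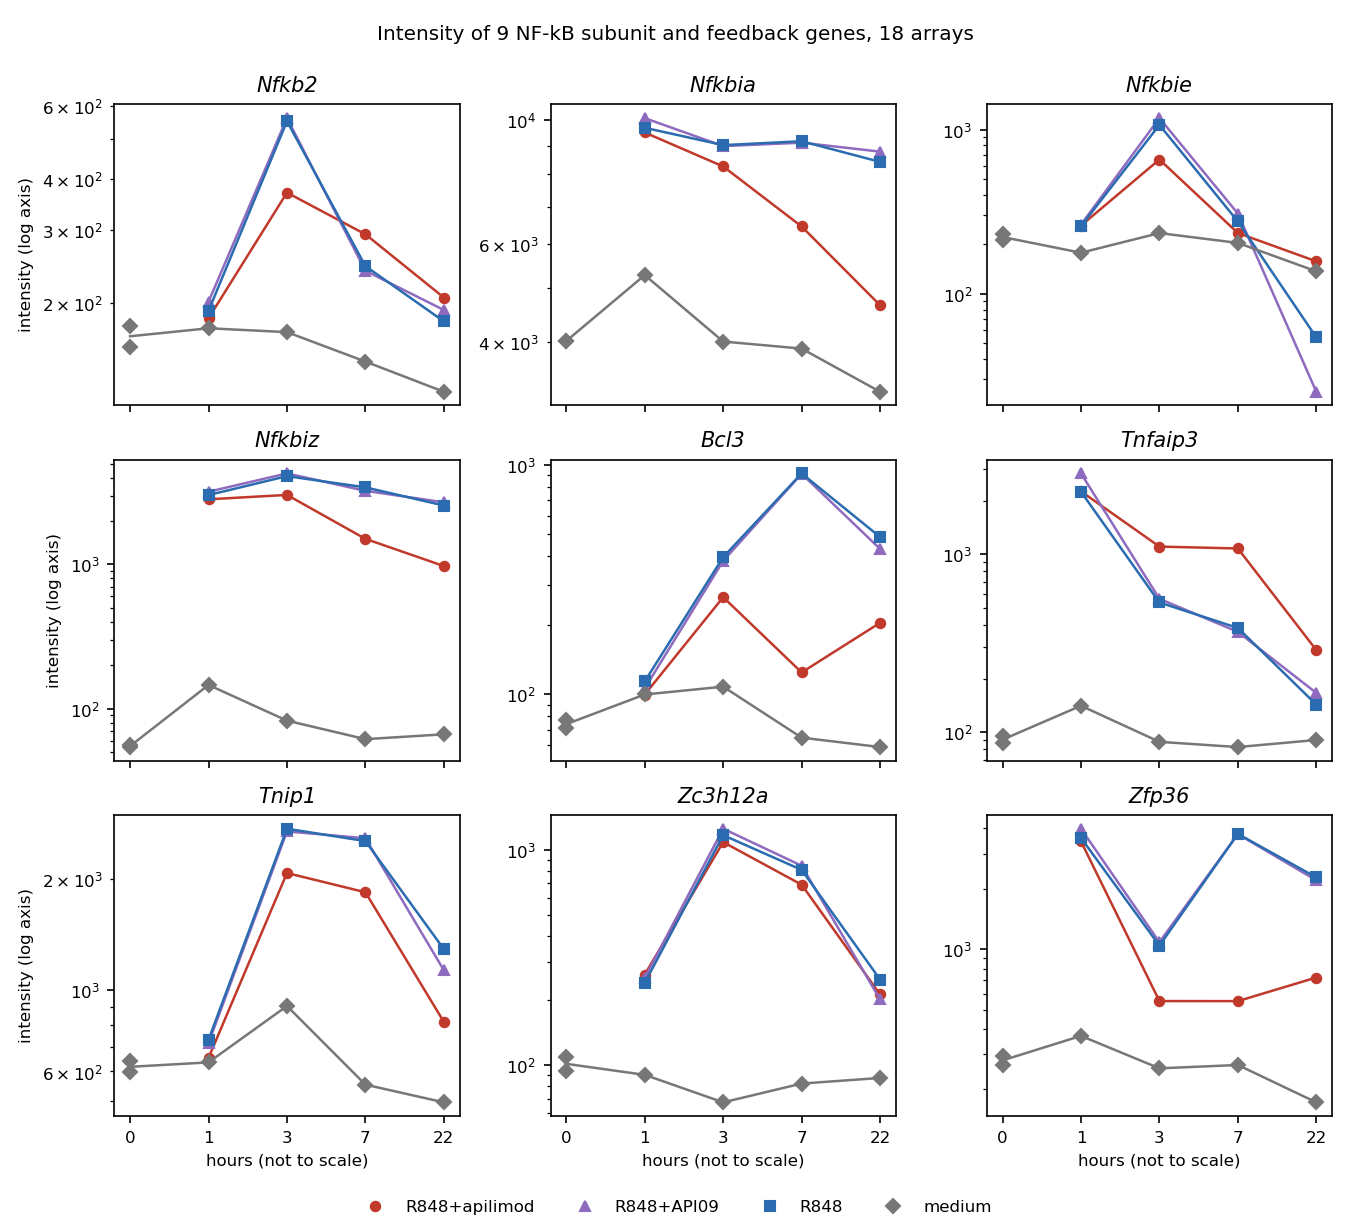
Intensity (log axis, a scale of its own in each panel) of the 9 genes on all 18 arrays against hours, not drawn to scale; each point is 1 array and lines join the points of an arm, passing through the geometric mean of the 2 medium arrays at 0 h. R848 (blue) and R848+API09 (purple) run close to each other, with gaps such as those of Nfkbie at 22 h and Tnfaip3 at 1 h. R848+apilimod (red) runs above them for Tnfaip3 at 3, 7 and 22 h and below them for Zfp36, Bcl3, Nfkbiz and Tnip1.

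Nfkb2 encodes p100, a precursor that holds RelB in the cytoplasm and is processed to the p52 subunit of the noncanonical pathway (probe set 1425902_a_at). Its intensity with R848+apilimod was 183 at 1 h, 370.2 at 3 h, 293 at 7 h and 206 at 22 h. With R848+API09 it was 201, 562, 239 and 192 at the same hours, and with R848 it was 191, 552, 245 and 180.1. Medium arrays ran from 122 to 176 with a median of 163. The stimulated levels peaked at 3 h in all 3 arms, and at that hour R848+apilimod lay below both controls, whereas at 7 and 22 h it lay above both.
Against medium, Nfkb2 in R848 controls was not separated at 1 h (0.16 ± 0.09) and exceeded it by 1.63 ± 0.09 at 3 h, 0.69 ± 0.09 at 7 h and 0.55 ± 0.09 at 22 h (0.51 without the R848+API09 array). The apilimod difference was -0.57 ± 0.09 at 3 h (adjusted p = 0.0022), and 0.26 ± 0.09 at 7 h, which did not pass (adjusted p = 0.086); at 22 h it was 0.14 ± 0.09, and 0.18 without the R848+API09 array. The 7 h value passed once the R848+API09 array at 22 h was left out (adjusted p = 0.035). Its change between 3 and 7 h, 0.83 ± 0.13, passed by itself (adjusted p = 0.0047), and did not with the mean of both probe sets (0.40, adjusted p = 0.31). The 2 probe sets of Nfkb2 disagree: the dimmer one showed an R848 difference of 0.01 and an apilimod difference of -0.05 at 3 h, and with the mean of both the 3 h apilimod call was lost (-0.31, adjusted p = 0.19).

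Nfkbia encodes IkB-alpha, the inhibitor that is degraded on stimulation and resynthesised as the fastest NF-kB feedback (probe set 1420088_at; promoter with 1 kappaB match above). Intensities with R848+apilimod were 9509 at 1 h, 8265 at 3 h, 6453 at 7 h and 4662 at 22 h. R848+API09 arrays read 10089, 8991, 9117 and 8787, and R848 arrays 9695, 9026, 9172 and 8423. Medium arrays lay between 3263 and 5280, with a median of 4016. The controls stayed on a plateau from 1 to 22 h, while each later R848+apilimod array was lower than the one before it and at 7 and 22 h it lay well below both controls.
In R848 controls Nfkbia was above medium by 0.90 ± 0.08, 1.16 ± 0.08, 1.23 ± 0.08 and 1.39 ± 0.08 at 1, 3, 7 and 22 h (1.36 at 22 h with the R848+API09 array left out), and none of its steps between neighbouring hours passed (-0.13 ± 0.07, 0.02 ± 0.07 and -0.09 ± 0.07). The apilimod difference was -0.06 ± 0.08 at 1 h, -0.12 ± 0.08 at 3 h, -0.50 ± 0.08 at 7 h (adjusted p = 0.0011) and -0.88 ± 0.08 at 22 h (adjusted p = 1.4e-05; -0.85 without the R848+API09 array). The array has 5 probe sets for this gene. At 22 h the 4 dimmer ones gave apilimod differences from -1.61 to -0.85 and R848 differences from 1.63 to 2.70, against -0.88 and 1.39 for the brightest. With the mean of the 5, the 3 h difference passed (-0.27, adjusted p = 0.048).

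Nfkbie encodes IkB-epsilon, an inhibitor made later than IkB-alpha (probe set 1458299_s_at). Its R848+apilimod intensities were 259.9 at 1 h, 657 at 3 h, 234 at 7 h and 157 at 22 h. The R848+API09 values were 264, 1174, 308 and 25.2, and the R848 values 258, 1068, 275 and 54.1. Medium ranged from 137 to 234, with a median of 209. Nfkbie peaked at 3 h in every stimulated arm, and by 22 h both controls had dropped under every medium array while R848+apilimod had not.
Against medium the control level was 2.18 ± 0.23 higher at 3 h, and at 22 h it was lower, with a difference of -1.51 ± 0.23 (adjusted p = 0.0003; -1.12 with the 22 h R848+API09 array left out). The 7 h difference of 0.48 ± 0.23 did not pass (adjusted p = 0.14), and it passed without that array (adjusted p = 0.0018). The apilimod difference at 22 h was 1.69 ± 0.23 (adjusted p = 0.00019), a 3.97-fold higher intensity, and 1.31 without that array. R848+apilimod and medium were not separated at 22 h (0.18 ± 0.26). The 3 h apilimod difference of -0.75 ± 0.23 missed the threshold (adjusted p = 0.066), and the unlike pair at 22 h enters its standard error. With the same array left out it passed (adjusted p = 0.00029), as did the 7 h difference of -0.30 (adjusted p = 0.033). The apilimod difference changed by 1.98 ± 0.32 between 7 and 22 h (adjusted p = 0.0015; 1.60 with that array left out). The second probe set ran the same way, with 1.95 at 3 h and -0.85 at 22 h for R848 and 1.17 at 22 h for apilimod.

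Nfkbiz encodes IkB-zeta, a nuclear IkB protein that is needed to switch on secondary genes such as Il6 and Lcn2 (probe set 1417483_at). Its R848+apilimod arrays read 2831 at 1 h, 3037 at 3 h, 1505 at 7 h and 975 at 22 h. Its R848+API09 arrays read 3196, 4282, 3243 and 2699, and its R848 arrays 3031, 4100.2, 3426 and 2563. Medium arrays lay between 54.1 and 146, with a median of 63.8. On this probe set no stimulated array came within reach of medium, and R848+apilimod was the lowest stimulated array at each hour.
Control intensity was 21.4-fold above medium at 1 h, 50.8-fold at 3 h, 54.4-fold at 7 h and 39.7-fold at 22 h, differences of 4.27 ± 0.09, 5.42 ± 0.09, 5.44 ± 0.09 and 5.01 ± 0.09 (4.97 at 22 h with the R848+API09 array left out). With apilimod it was lower, by differences of -0.46 ± 0.09 at 3 h, -1.14 ± 0.09 at 7 h and -1.42 ± 0.09 at 22 h (adjusted p = 0.0059, 3.5e-06 and 7e-07; -1.38 at 22 h without the R848+API09 array), and it still stood 3.59 ± 0.10 above medium at 22 h. The apilimod difference moved by -0.68 ± 0.13 between 3 and 7 h (adjusted p = 0.01), a call that was lost with the mean of probe sets (-0.44, adjusted p = 0.15). The other 2 probe sets gave apilimod differences of -0.93 and -0.92 at 3 h, -1.51 and -0.99 at 7 h, then -1.25 and -0.57 at 22 h. Their R848 differences at 22 h were 4.69 and 0.45, against 5.01 for the brightest. On the dimmest probe set R848+apilimod read 28.7 at 22 h and medium 32.7. Medium itself changed at 1 h: its array was 1.19 ± 0.09 above the 2 arrays at 0 h (55.7 and 54.1), the only one of the 9 genes to pass there (0.261% of all genes were higher).

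Bcl3 encodes a nuclear IkB family protein that binds p50 and p52 homodimers (probe set 1418133_at, the only one). R848+apilimod arrays read 99.6 at 1 h, 264 at 3 h, 124 at 7 h and 205 at 22 h. R848+API09 arrays read 106, 381, 913 and 429.5, and R848 arrays 114, 395, 917 and 484. Medium ranged from 58.7 to 108, with a median of 74.0. Bcl3 was the slowest of the 9: the controls were near medium at 1 h and reached their peak at 7 h, the hour at which R848+apilimod was lower than at 3 or 22 h.
The control level passed medium by 1.71 ± 0.10 at 3 h, 3.53 ± 0.10 at 7 h (14.2-fold) and 2.66 ± 0.10 at 22 h (2.74 with the R848+API09 array left out). The apilimod differences were -0.53 ± 0.10 at 3 h (adjusted p = 0.0048), -2.73 ± 0.10 at 7 h (adjusted p = 1.2e-08) and -1.10 ± 0.10 at 22 h (adjusted p = 1e-05; -1.18 with that R848+API09 array left out). At 7 h the controls were 7.36-fold brighter than R848+apilimod. The difference moved by -2.20 ± 0.14 between 3 and 7 h and by 1.63 ± 0.14 between 7 and 22 h (1.55 with that array left out), and both steps passed (adjusted p = 1.6e-05 and 2.5e-05).

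Tnfaip3 encodes A20, a ubiquitin-editing enzyme that shuts off signalling from TNF and Toll-like receptors to NF-kB (probe set 1433699_at). R848+apilimod arrays read 2253 at 1 h, 1103 at 3 h, 1076 at 7 h and 289 at 22 h. R848+API09 arrays read 2840.4, 561, 366 and 166, and R848 arrays 2244, 535, 385 and 143. Medium lay between 82.5 and 141, with a median of 89.3. The control level was highest at 1 h and lower at each later hour, and from 3 h on R848+apilimod lay above both controls.
Control intensity was 18.1-fold above medium at 1 h (4.02 ± 0.14), 6.21-fold at 3 h (2.44 ± 0.14), 4.55-fold at 7 h (1.99 ± 0.14) and 1.71-fold at 22 h (0.68 ± 0.14, and 0.58 with the R848+API09 array left out). With apilimod it was 2.01-fold higher at 3 h, 2.87-fold at 7 h and 1.87-fold at 22 h, differences of 0.99 ± 0.14, 1.48 ± 0.14 and 0.84 ± 0.14 (adjusted p = 0.00056, 1.2e-05 and 0.00068). At 22 h the difference was 0.94 without the R848+API09 array. The apilimod difference moved by 1.15 ± 0.19 between 1 and 3 h (adjusted p = 0.0044) and by -0.64 ± 0.19 between 7 and 22 h (adjusted p = 0.039). The later step passed in 3 of 10 alternatives, and it was -0.54 (adjusted p = 0.059) with the R848+API09 array left out. The dimmer probe set gave apilimod differences of 1.02, 1.36 and 0.67 at 3, 7 and 22 h.

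Tnip1 encodes ABIN-1, a ubiquitin-binding partner of A20 (probe set 1427689_a_at, the only one). R848+apilimod arrays read 653 at 1 h, 2072 at 3 h, 1837 at 7 h and 818 at 22 h. R848+API09 arrays read 717, 2686, 2574 and 1129, and R848 arrays 731, 2732, 2529 and 1288. Medium ranged from 495 to 903, with a median of 616. Tnip1 held its peak across 3 and 7 h, a step that did not pass in the controls (-0.09 ± 0.08), and R848+apilimod was below both controls at each hour.
Against medium the controls did not pass at 1 h (0.18 ± 0.10) and were higher by 1.57 ± 0.10, 2.17 ± 0.10 and 1.26 ± 0.10 at 3, 7 and 22 h (1.35 at 22 h with the R848+API09 array left out). The apilimod differences were -0.38 ± 0.10 at 3 h (adjusted p = 0.031), -0.47 ± 0.10 at 7 h (adjusted p = 0.0051) and -0.55 ± 0.10 at 22 h (adjusted p = 0.0013; -0.65 without the R848+API09 array). The 3 h call was lost with R848 alone as control (adjusted p = 0.11), with R848+API09 alone (adjusted p = 0.14), with a pseudocount of 1 (adjusted p = 0.059), and with either medium array at 0 h left out (adjusted p = 0.056). A20 and its partner parted at 3, 7 and 22 h, Tnfaip3 being higher and Tnip1 lower with apilimod.

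Zc3h12a encodes Regnase-1, an endonuclease that cuts cytokine mRNA such as that of Il6 (probe set 1427348_at). R848+apilimod arrays read 264 at 1 h, 1084 at 3 h, 688 at 7 h and 213 at 22 h. R848+API09 arrays read 255, 1251, 843 and 202, and R848 arrays 241, 1168, 806 and 250.05. Medium lay between 67.3 and 109.7, with a median of 88.9. All 3 stimulated arms rose and declined together, and at 22 h R848+apilimod lay between the 2 controls.
The controls were higher than medium by 1.31 ± 0.13 at 1 h, 3.88 ± 0.13 at 3 h (17.96-fold), 3.10 ± 0.13 at 7 h and 1.22 ± 0.13 at 22 h (1.36 with the R848+API09 array left out). The apilimod differences, with 95% intervals, were 0.08 (-0.20 to 0.36), -0.15 (-0.43 to 0.12), -0.25 (-0.53 to 0.02) and -0.07 (-0.35 to 0.21) at the 4 hours in order, the last being -0.22 without the R848+API09 array. None passed, which does not show that the levels were the same.

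Zfp36 encodes tristetraprolin, which binds AU-rich elements and directs the decay of Tnf and other cytokine mRNAs (probe set 1452519_a_at, the only one). With R848+apilimod its intensity was 3451 at 1 h, 551.2 at 3 h, 550.7 at 7 h and 722 at 22 h. R848+API09 arrays read 3989, 1084, 3750.3 and 2205, and R848 arrays 3590, 1041, 3758 and 2279. Medium ranged from 172 to 369, with a median of 265. The controls had a first peak at 1 h, a trough at 3 h and a second peak at 7 h, and the R848+apilimod arrays had the first peak without the second.
In the controls the step from 1 to 3 h was -1.82 ± 0.08 and that from 3 to 7 h was 1.81 ± 0.08 (adjusted p = 4.5e-08 and 8.6e-08). The apilimod differences were -0.13 ± 0.10 at 1 h, -0.93 ± 0.10 at 3 h, -2.73 ± 0.10 at 7 h and -1.61 ± 0.10 at 22 h (adjusted p at 3, 7 and 22 h = 8.8e-05, 1.2e-08 and 5.6e-07; -1.64 at 22 h when the R848+API09 array was left out). At 7 h the controls were 6.82-fold brighter than R848+apilimod. The difference moved by -0.79 ± 0.14 between 1 and 3 h, by -1.81 ± 0.14 between 3 and 7 h and by 1.12 ± 0.14 between 7 and 22 h (1.10 with the R848+API09 array left out), and each step passed (adjusted p = 0.0059, 3.5e-05 and 0.00029). Across the set, 2 of 9 apilimod differences changed between 1 and 3 h (5.11% of all genes), 4 of 9 between 3 and 7 h (4.76%) and 5 of 9 between 7 and 22 h (20.1%).

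**Figure D2:**
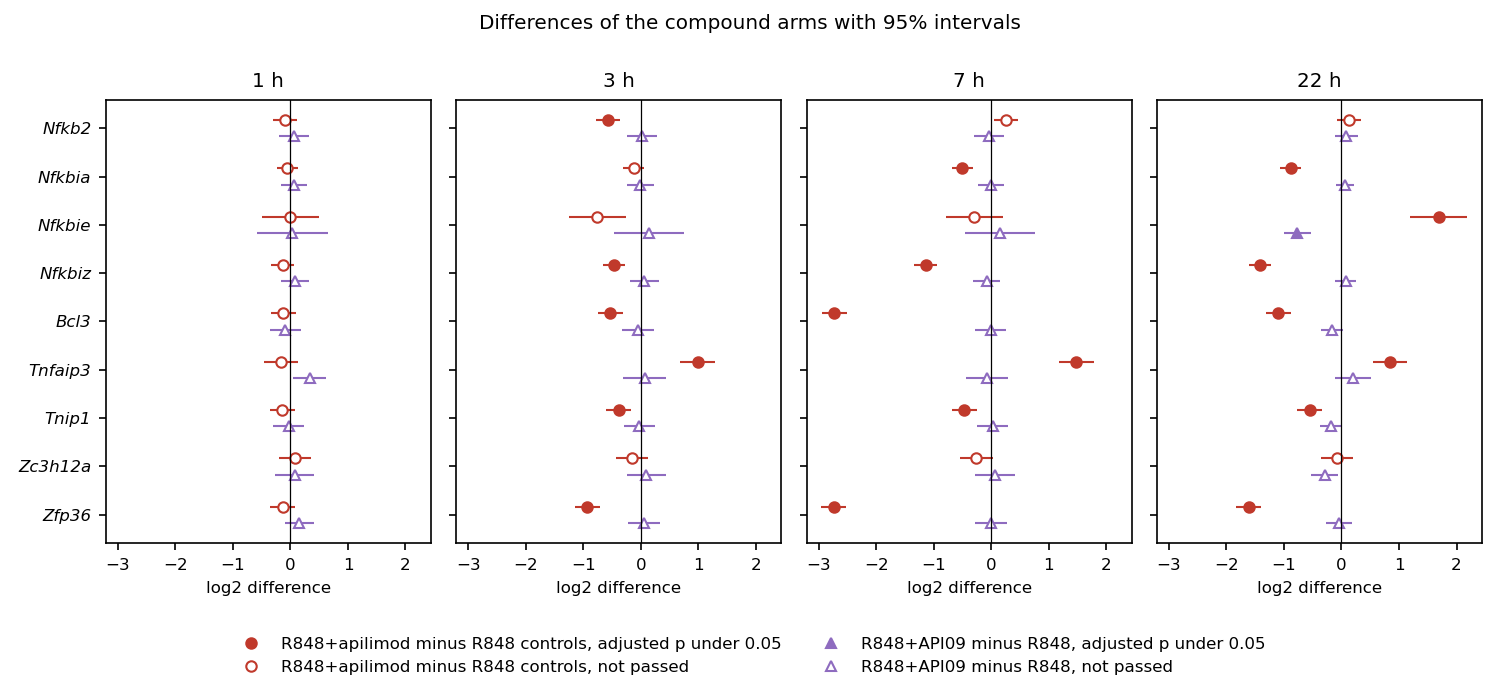
Log2 differences on the log2(intensity + 16) scale with 95% intervals at each hour, R848+apilimod minus R848 controls (red circles) and R848+API09 minus R848 (purple triangles), filled where the adjusted p was under 0.05. Bcl3 and Zfp36 sit at -2.73 at 7 h and Tnfaip3 at 1.48. The API09 marker farthest from 0 is that of Nfkbie at 22 h, at -0.77, and it is the only one filled.

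API09 was given at the dose of apilimod. Against R848 alone none of the 9 genes passed at 1, 3 or 7 h, where none of the 12257 genes did (0.0%; limma left 249, 163 and 391 genes with an unadjusted p under 0.05). At 22 h Nfkbie was lower with API09, -0.77 ± 0.10 (adjusted p = 0.0066), and the other 8 did not pass, at an hour when 16.7% of all genes were lower and the median of all genes was -0.12. Between R848+apilimod and R848+API09 no gene of the 9 passed at 1 h (0.0% in limma; 199 genes and 1 of the 9 had an unadjusted p under 0.05). At 3 h 1 had risen and 4 had fallen (3.78% and 2.59% of all genes), at 7 h 1 up and 5 down (8.27% and 7.42%), and at 22 h 2 up and 5 down (31.0% and 16.8%). The split of all genes at 22 h turned with median centring, to 2523 higher and 3736 lower, against 3803 and 2056 as deposited. Among these differences were -2.73 ± 0.12 for Bcl3 and for Zfp36 and 1.52 ± 0.16 for Tnfaip3 at 7 h, and 2.07 ± 0.10 for Nfkbie at 22 h. At 7 h the 95% intervals of R848+API09 minus R848 were -0.28 to 0.27 for Bcl3, -0.27 to 0.27 for Zfp36 and -0.44 to 0.30 for Tnfaip3. Tnfaip3 at 1 h was the widest of the early API09 differences (0.34 ± 0.13, interval 0.05 to 0.62) and did not pass. These comparisons share arrays and are not independent of those with R848 controls.

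**Figure D3:**
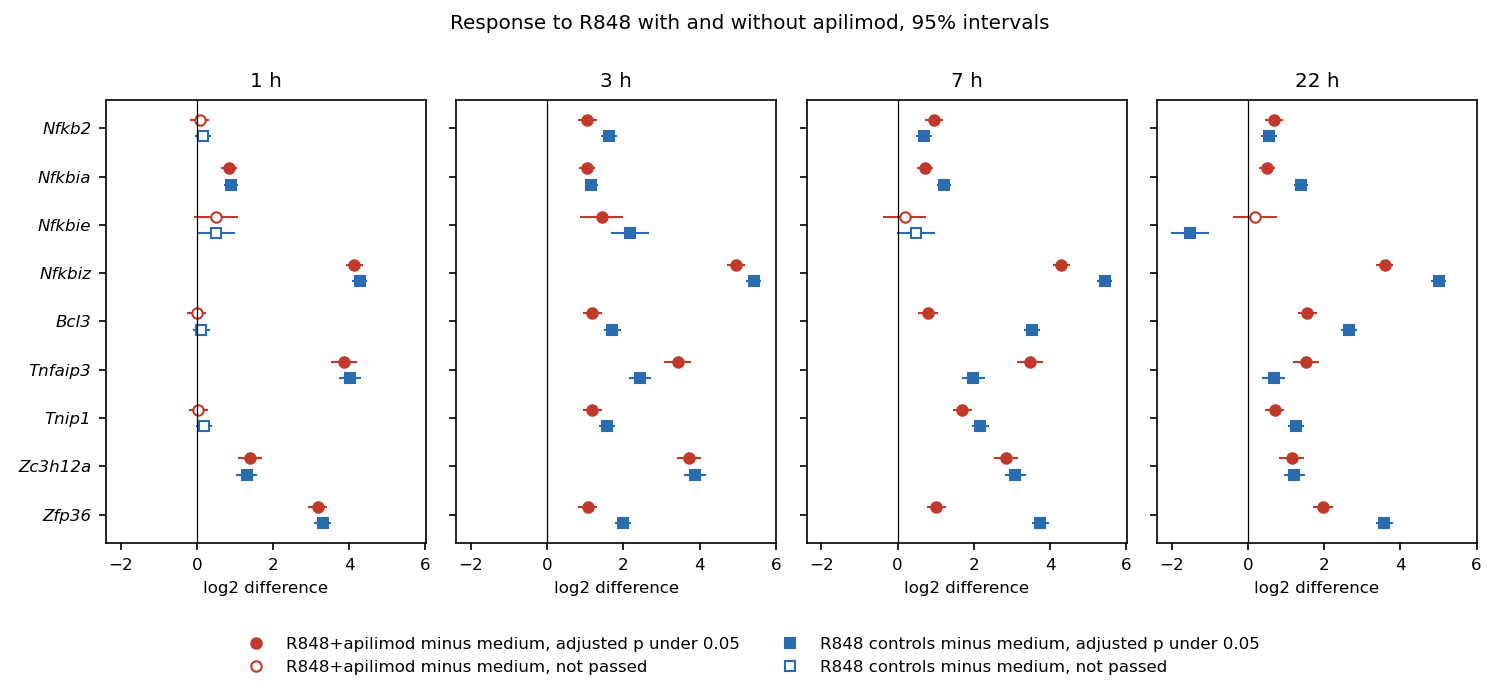
Log2 differences from medium at each hour with 95% intervals on the log2(intensity + 16) scale, for R848+apilimod (red circles) and R848 controls (blue squares), filled where the adjusted p was under 0.05. Both arms stand above medium for most genes; at 7 h Zfp36 is at 1.01 with apilimod and 3.75 in controls, and Bcl3 is at 0.80 and 3.53.

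The number of the 9 genes that passed above medium was the same in R848+apilimod and in R848 controls at each hour. Against medium, R848+apilimod had 5, 9, 8 and 8 of the 9 genes higher at 1, 3, 7 and 22 h (higher among all genes: 0.547%, 6.91%, 12.3% and 21.5%). Nfkbie was the gene that did not pass at 7 and 22 h (0.19 ± 0.26 and 0.18 ± 0.26). Bcl3 was 0.80 ± 0.11 above medium at 7 h with apilimod, against 3.53 ± 0.10 in controls, and Zfp36 was 1.01 ± 0.11 above it, against 3.75 ± 0.10. Tnfaip3 was 3.42 ± 0.16 and 3.47 ± 0.16 above medium at 3 and 7 h with apilimod, against 2.44 ± 0.14 and 1.99 ± 0.14 in controls. Both rest on the same medium arrays.

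Over 1 to 22 h with hour as a block, R848 raised 6 of the 9 genes against medium (0.8% of all genes), from 5.02 ± 0.22 for Nfkbiz to 1.16 ± 0.12 for Nfkbia. Tnfaip3 and Tnip1 passed in 7 of 14 alternatives each, and the count was 3 with the 3 h or the 7 h arrays left out and 1 with the 2 arms compared alone. Bcl3 (2.04 ± 0.47, adjusted p = 0.056), Nfkb2 (0.74 ± 0.20) and Nfkbie (0.47 ± 0.47) did not pass. No member and no other gene passed between R848+apilimod and R848 over all hours (0.0%; 1588 genes and 4 of the 9 had an unadjusted p under 0.05), where Zfp36 averaged -1.33 ± 0.38 and Nfkbiz -0.77 ± 0.22. With the 1 h arrays left out 2 of the 9 were lower (Zfp36, with -1.76, and Nfkbiz), and of all 12257 genes 165 were lower and 316 higher.

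In medium some of the 9 genes also passed against 0 h, while Nfkbie, Bcl3, Tnfaip3 and Zc3h12a passed at no hour. Against 0 h, Nfkbiz (0.47 ± 0.09) and Tnip1 (0.54 ± 0.10) were higher at 3 h (0.514% of all genes), though neither passed with 1 of the 2 arrays at 0 h left out. None passed at 7 h (0.343% of all genes), where limma left none of the 9 with an unadjusted p under 0.05. At 22 h Zfp36 (-0.65 ± 0.10), Nfkb2 (-0.40 ± 0.09), Tnip1 (-0.31 ± 0.10) and Nfkbia (-0.30 ± 0.08) were lower (10.8% of all genes); the count was 1 and 2 when each array at 0 h was left out in turn.

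**Figure D4:**
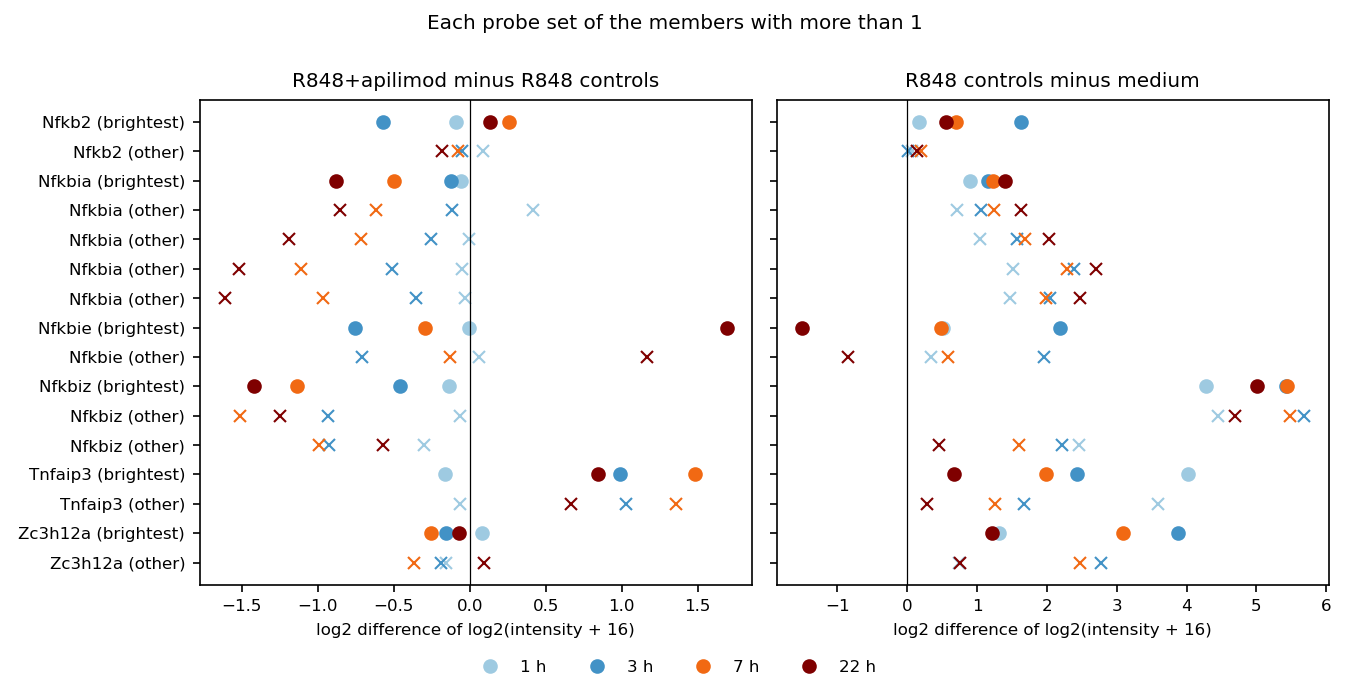
Apilimod difference (left) and R848 difference (right), both on the log2(intensity + 16) scale, for every probe set of the 6 genes with more than 1; circles are the brightest probe set of a gene, crosses the others, and colours the hours. The second probe set of Nfkb2 stays near 0 in both panels, while those of Tnfaip3, Nfkbie and Nfkbiz lie on the side of 0 of the brightest one at 3 and 22 h.

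The other genes of the pathway were read by role. Beside their counts stand the shares of all genes given above: apilimod raised 5.07% and lowered 4.12% at 3 h, raised 9.81% and lowered 9.81% at 7 h, and raised 20.2% and lowered 14.3% at 22 h. Their values without the R848+API09 array at 22 h were computed after the data had been seen. Of the 3 other Rel subunits, 2 rose with R848 at 3 h: Rel, the c-Rel subunit (2.31 ± 0.18), and Relb (1.00 ± 0.10). Rel was lower with apilimod at both 3 and 7 h (-0.77 ± 0.18 and -0.88 ± 0.18), with intensities of 260 in R848+apilimod, 462 in R848+API09, 522 in R848 and 107 in medium at 7 h. Relb was higher with apilimod at 7 and 22 h (0.49 ± 0.10 and 0.38 ± 0.10; 0.30 at 22 h with the R848+API09 array left out, when Rel was also lower, -0.81 with adjusted p = 0.00014 against -0.51 with adjusted p = 0.05001 on all arrays). Of the other 2 IkB genes, Nfkbid, the nuclear IkB-NS, rose at 1 h by 2.06 ± 0.13 and was lower with apilimod at 3, 7 and 22 h (-0.69, -0.75 and -0.61, each ± 0.13; -0.79 at 22 h with that array left out). Nfkbib, which encodes IkB-beta, went the other way, higher with apilimod by 0.51 ± 0.13 at 7 h and 0.65 ± 0.13 at 22 h (0.47 with that array left out).
Of 10 kinases of the pathway, R848 raised 1, 3, 4 and 2 at the 4 hours in order (0.636%, 6.23%, 11.3% and 16.5% of all genes), and lowered 1 at 7 h and 3 at 22 h (18.5% and 29.1%; 4 at 22 h with that array left out). Map3k8, the kinase TPL2 that p105 holds inactive, was higher by 1.19 ± 0.15, 1.88 ± 0.15, 2.28 ± 0.15 and 1.75 ± 0.15 (1.94 at 22 h with that array left out), and it was lower with apilimod at 7 h (-1.13 ± 0.15) and 22 h (-0.84 ± 0.15, and -1.02 with that array left out). Ikbke, an IKK-related kinase, was higher with R848 by 2.20 ± 0.11 at 3 h and lower with apilimod at 3 and 22 h (-0.44 ± 0.11 and -0.76 ± 0.11, the second -0.89 with that array left out). The counts with apilimod were 1 kinase up and 2 down at 3 h, 1 up and 4 down at 7 h and 2 down at 22 h, where 4 were down with that array left out.
Among 10 ubiquitin ligases and adaptors, apilimod raised 1 at 3 h and 3 at 7 h, and at 22 h it raised 1 and lowered 1 (1 and 3 with the R848+API09 array left out). Traf1, an NF-kB-induced adaptor, rose by 3.18 ± 0.19 with R848 at 3 h and was higher with apilimod at 7 h (0.94 ± 0.19) and 22 h (1.77 ± 0.19, and 1.45 with that array left out), where it read 242 in R848+apilimod, 45.0 in R848+API09, 78.1 in R848 and 31.6 in medium. Of 8 genes of ubiquitin-linked restraint, 1 was higher with apilimod at 3 h, 1 up and 1 down at 7 h and 2 up and 2 down at 22 h; Tnip2, a second ABIN, was lower at 7 h (-0.53 ± 0.10) and Tax1bp1, an A20 adaptor, was higher (0.56 ± 0.11).
Of 8 RNA-binding decay factors, Zfp36l1, a relative of Zfp36, was lower with apilimod at 3, 7 and 22 h (-0.73 ± 0.10, -1.20 ± 0.10 and -0.40 ± 0.10, the last -0.38 with the R848+API09 array left out), and Zc3h12c, a relative of Zc3h12a, was higher at 7 h (0.88 ± 0.14). In this list apilimod gave 1 up and 1 down at 3 h, the same counts at 7 h, and 4 down at 22 h. Of 8 mRNA targets or dependants of the members, apilimod raised 1 and lowered 5 at 3 h, raised 2 and lowered 5 at 7 h, and lowered 4 at 22 h. At 22 h the counts with apilimod in the restraint, decay and target lists were the same with the R848+API09 array left out. In the restraint list the lower genes were not all the same. Without that array Tank did not pass (-0.29, against -0.35 on all arrays) and Itch did (-0.42, against -0.27). Among the targets, the 7 h differences were -3.14 ± 0.13 for Lcn2, -2.25 ± 0.10 for Il6 and 1.48 ± 0.12 for Csf3.

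Across the 18 arrays the gene outside the set whose log2 level ran most like that of each member was Sertad2 for Nfkb2 (Pearson r = 0.97), Socs3 for Nfkbia (0.93) and Nfkbiz (0.97), Icam1 for Nfkbie (0.95), Ccl5 for Bcl3 (0.95), Csrnp1 for Tnfaip3 (0.92), Rhbdf2 for Tnip1 (0.98), Odc1 for Zc3h12a (0.95) and Dusp2 for Zfp36 (0.92). Within the set the closest pair was Nfkbia and Nfkbiz (0.95), and the least alike was Zfp36 and Nfkbie (-0.03). These coefficients describe 18 arrays that share hours, stimulus and labelling.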

How the data were processed

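RNA of RAW cells was amplified with the NuGEN Ovation system and hybridised to 18 Affymetrix mouse 430 2.0 arrays of 1 colour (labels' protocols). The values deposited by the authors are linear intensities per probe set; medians of 17.5 to 19.2 were read as already normalized, and the method is not given in the sources used here. limma is named in the submitters' processing notes, where neither its version nor its use is stated. Genes were named through the platform annotation; symbols came from entrez IDs for 34754 of 45101 probe sets, and the 932 probe sets with several symbols were left out.

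A gene needed an intensity above 18.05 (the overall median) on at least 3 arrays, and its brightest probe set represented it. limma 3.58.1 (R 4.3.3) was fitted to log2(intensity + 16) over 12257 genes, two-sided, with an adjusted p threshold of 0.05. In the fits within hours, R848 and R848+API09 of an hour shared a mean, which with the 2 arrays at 0 h left 5 residual degrees of freedom; the comparisons of API09 gave that hour separate means (4), and the fits over all hours had arm and hour as terms (10). The steps were tested on simulated data. The small number of arrays limits the precision. Alternatives were quantile normalization, median centring, a pseudocount of 1, no filter, a filter at the 75th percentile, the mean of probe sets, limma with trend and robust, 1 control alone, and arrays left out. The members, gene lists and tests were chosen with earlier results of these data known. Named genes were the members, the gene outside the set most correlated with each, and up to 4 of each pathway list by the size of their difference among those that passed.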

Additional observations from a re-analysis of the deposited data

Results flagged for a closer look

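The change of the apilimod difference (R848+apilimod minus R848 controls, log2(intensity + 16) scale) between neighbouring hours was itself tested with limma. Genes with an adjusted p under 0.05 are listed by step, beside the share of all genes that passed. From 1 to 3 h the difference moved by 1.151 for Tnfaip3 and by -0.7947 for Zfp36 (5.11% of all genes). From 3 to 7 h it moved by -2.204 for Bcl3, -1.807 for Zfp36, -0.6765 for Nfkbiz and 0.8288 for Nfkb2 (4.76% of all genes). With the mean of probe sets the calls of Nfkbiz (-0.44) and Nfkb2 (0.40) were lost. From 7 to 22 h it moved by 1.985 for Nfkbie, 1.633 for Bcl3, 1.121 for Zfp36, -0.6368 for Tnfaip3 and -0.3798 for Nfkbia (20.1% of all genes). Of 10 alternatives, 3 kept that of Tnfaip3 past the threshold and 6 that of Nfkbia. Each of these tests sets 1 R848+apilimod array and 2 control arrays of an hour against those of the hour before.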

How the results depend on the processing

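Of 3276 values recomputed for the 9 genes under the alternatives, 3151 kept their sign and their side of the threshold, 70 lost a call, 54 gained one and 1 reversed: Nfkb2 for R848+apilimod minus R848+API09 at 22 h, 0.09, was -0.21 (adjusted p = 0.026) with the mean of probe sets. Counts of the 9 genes that moved by more than 1.5 times were these; others moved by less, such as the 5 lower with apilimod at 3 h (4 to 6), the 8 higher in R848 controls at 7 h (9 with median centring, the mean of probe sets or the 22 h R848+API09 array left out) and the 8 control levels that fell from 7 to 22 h (6 with median centring). For medium against 0 h, the 1 higher at 1 h became 2 with quantile normalization, the mean of probe sets or trend and robust, and 3 with the 22 h R848+API09 array left out; the 2 higher at 3 h became 1 with a pseudocount of 1 and 0 without either array at 0 h, with 1 lower without the R848+API09 array; at 22 h there was 1 higher without that array, and the 4 lower became 1 to 2 without an array at 0 h. For the apilimod difference, 2 genes and not 1 were higher at 7 h without the R848+API09 array. Its change from 1 to 3 h was lower for 2 genes and not 1 with the filter at the 75th percentile or the mean of probe sets, and for 4 without the R848+API09 array; from 3 to 7 h 0 and not 1 were higher with the mean of probe sets; from 7 to 22 h 1 and not 2 (Tnfaip3 and Nfkbia) were lower with quantile normalization, no filter or without the R848+API09 array, and 0 with median centring, a pseudocount of 1 or either array at 0 h left out. For R848+apilimod minus R848+API09 at 3 h, 2 and not 4 were lower with median centring, a pseudocount of 1 or either array at 0 h left out. For R848+API09 minus R848 at 22 h, 2 were higher with median centring and 1 with the mean of probe sets, where 0 had been, and 2 and 3 were lower with the mean of probe sets and with trend and robust, where 1 had been. Over all hours the 6 higher with R848 became 3 without the 3 h or 7 h arrays and 1 with the arms compared alone, and 2 were lower with apilimod against R848 and against R848+API09 without the 1 h arrays. The cause was not tested. Some alternatives could change only the call of a member and not its difference, which limits what the 3276 recomputed values can show. These were the 2 filter settings, trend and robust, and an array at 0 h left out where 0 h was not compared. Another was the 22 h R848+API09 array left out where the R848 controls of 22 h were not compared. The mean of probe sets likewise left the genes with 1 probe set unchanged.

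Counts over all genes ranged from 559 to 1133 higher (764 as reported) for R848 controls at 3 h, 1118 to 1959 (1389) at 7 h and 1428 to 4505 (2027) at 22 h. For apilimod against R848 controls they ranged from 318 to 945 lower (505) at 3 h, 885 to 1835 (1203) at 7 h and 2014 to 3803 higher (2476) at 22 h. For R848+API09 minus R848 at 22 h, 391 higher and 2044 lower became 1690 and 268 with median centring, which shifted the median of all genes by 0.21. The fits over all hours pair the arms by hour. By replicate number, no paired analysis was possible because only the medium arrays at 0 h carry such numbers.

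Each difference rests on 1 R848+apilimod array per hour. The spread comes from the 4 pairs of R848 and R848+API09 arrays and the 2 arrays at 0 h. How intensities were normalized is not known, and apart from the cell type markers, intensities of different genes were not compared.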
